A study of Mus musculus with 18 samples.

Results

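Peg10 and 9 other imprinted genes (Sgce, Ppp1r9a, Igf2, H19, Cdkn1c, Peg3, Mest, Dlk1 and Plagl1) were followed in mouse collecting duct cells in which retinoic acid signaling was inhibited. Members were the transcript clusters (the probe groups that stand for one gene on the array) whose platform annotation gave one of these symbols alone. There were 9 such clusters, 1 for each gene except H19, for which no cluster carried the symbol by itself, among the 23410 clusters with a symbol and the 35556 of the whole array. Peg10 was chosen by its log2 differences in these same contrasts, from which the study had listed it, so its changes are described here without a test. The other members were chosen as imprinted genes, with earlier results of these data known, and were tested.

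RNA came from mIMCD-3 cells, an established mouse line from the inner medullary collecting duct of the kidney, and was hybridised to 18 arrays. There were 2 experiments, and each held 9 arrays, which formed 3 groups with 3 independent replicates apiece. All treatments lasted 24 h. The first experiment compared vehicle (ethanol and DMSO, each at 0.1%), AGN193109 at 1 µM, an antagonist that blocks the retinoic acid receptors (RARs), and AGN193109 at 1 µM together with all-trans retinoic acid (tRA) at 0.2 µM. The second compared the same vehicle, DEAB at 25 µM, an inhibitor of the aldehyde dehydrogenases that make retinoic acid, and DEAB at 25 µM with tRA at 0.01 µM. The model is 1 cell line in culture, and the tRA dose differed between the experiments. All 8 epithelial and collecting duct markers examined lay above the 30th percentile of clusters in both experiments, and 3 of 7 markers of other cell types lay below it in both experiments and 2 in 1 of them. The remaining 2, Slc34a1 and Slc12a3, lay above it in both, so this cut does not fully separate the marker lists.

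An imprinted gene is transcribed mainly from the copy inherited from one parent, and imprinted genes sit in clusters where a shared control element can set the activity of several neighbours. Peg10 is a paternally expressed gene that descends from a retrotransposon and keeps its gag and pol reading frames, and it is needed for the placenta to form. Sgce, which encodes epsilon-sarcoglycan, lies next to it head to head and is also paternally expressed, whereas Ppp1r9a, which encodes the actin-binding protein neurabin, lies on its other side and shows imprinting in some tissues only. On mouse chromosome 6 (GRCm38) Sgce spans 4674350 to 4747204 and Peg10 4747306 to 4760517, which leaves 101 bases between them. Ppp1r9a, from 4902872 to 5165661, begins 142.354 kb after the end of Peg10.

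Peg10 was higher with either inhibitor than with vehicle, and lower again when tRA was added. In the AGN193109 experiment its log2 level was 9.81, 9.83 and 9.72 in vehicle replicates 1, 2 and 3. It was 10.50, 10.35 and 10.34 with AGN193109, and 10.08, 10.08 and 10.03 with AGN193109 and tRA. The 3 groups were fully separated, with the tRA group between the others. Among all clusters, 6.02% had no overlap between AGN193109 and vehicle, 4.15% between AGN193109 with and without tRA, and 3.87% between AGN193109 with tRA and vehicle.

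With AGN193109 the Peg10 level exceeded that of vehicle by 0.61 (SE 0.07, n = 3 per group) on the log2 scale, a 1.52-fold difference, or by 0.68, 0.52 and 0.62 within replicates 1, 2 and 3. This was the 20th highest difference of the 23410 clusters. With added tRA the level differed from that with AGN193109 by -0.33 (SE 0.07), and it was 0.28 above vehicle.

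In the DEAB experiment the Peg10 level was 10.95, 10.31 and 10.39 in the vehicle replicates, 11.49, 10.63 and 10.84 with DEAB, and 10.58, 10.15 and 10.29 with DEAB and tRA. Replicate 1 stood highest in all 3 groups. As a consequence the DEAB and vehicle groups overlapped, although DEAB was above vehicle in each of the 3 replicates, by 0.54, 0.32 and 0.45. The mean log2 difference was 0.44 (SE 0.24), with an SE of 0.08 when the replicate number was a block in the fit, and it again ranked 20th of all clusters. Without the DEAB replicate 1 array, but with vehicle replicate 1 kept so that the replicates were no longer balanced, it was 0.18.

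With DEAB and tRA the Peg10 level lay below that with DEAB by a log2 difference of -0.65 (SE 0.24), or by -0.91, -0.48 and -0.55 within replicates, and these groups did not overlap. No overlap between these groups was seen for 9.21% of clusters, beside 6.89% for DEAB and vehicle and 8.07% for DEAB with tRA and vehicle. Against vehicle, DEAB with tRA differed by -0.21 (SE 0.24), being lower in 3 of 3 replicates, and the groups overlapped. The differences within replicates were -0.37, -0.16 and -0.10. Without the vehicle replicate 1 array, but with DEAB and tRA replicate 1 kept, the mean difference was -0.011. Thus the level under inhibitor plus tRA lay above vehicle in one experiment and below it in the other, at tRA doses that were not the same.

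**Figure D1:**
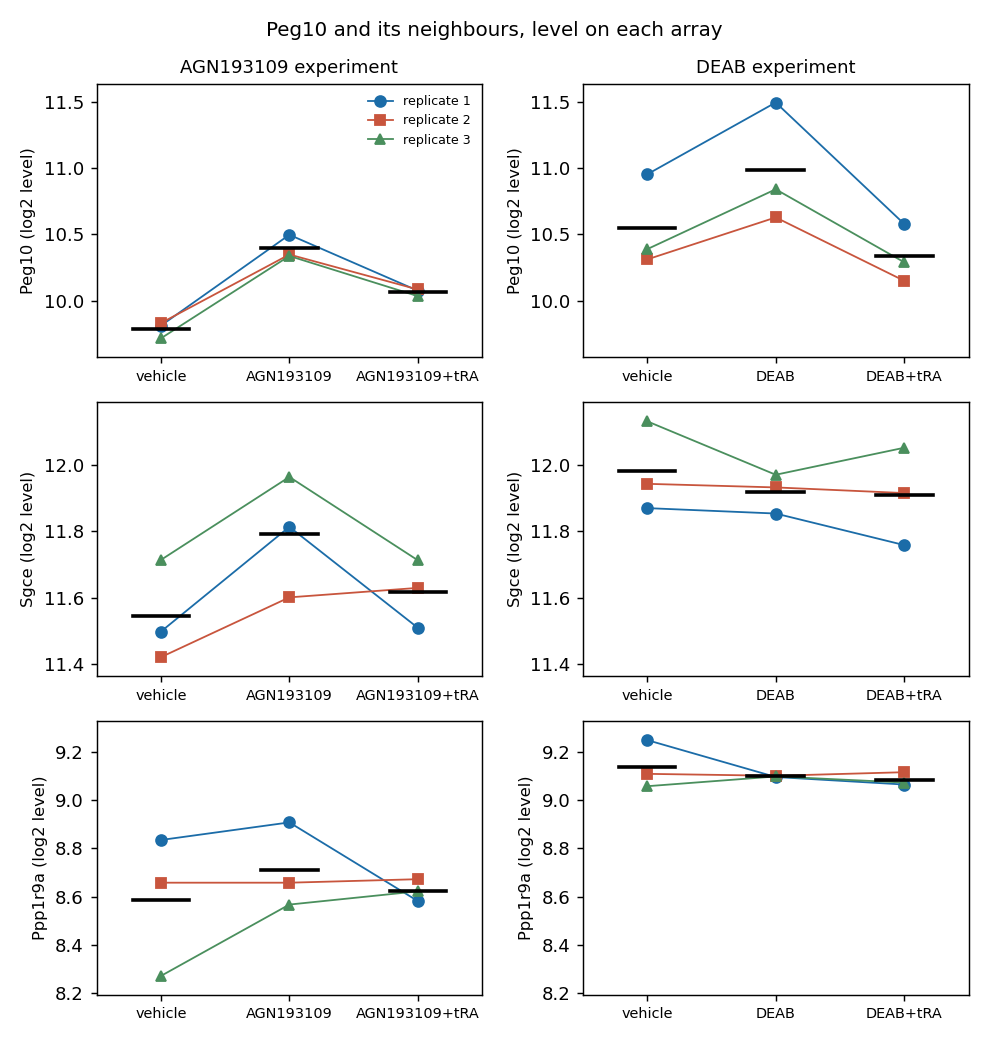
Log2 level (y axis) of Peg10, Sgce and Ppp1r9a on each array, by treatment (x axis) in the AGN193109 and DEAB experiments; points and lines follow replicates 1, 2 and 3 and black bars are the means of 3. The Peg10 lines peak at the inhibitor in all 6 replicate series, the Sgce lines are higher at AGN193109 than at vehicle but not at DEAB, and the Ppp1r9a lines follow no common course.

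Whether Peg10 moved with its neighbours was examined next. The Sgce level was 11.50, 11.42 and 11.71 in the vehicle replicates of the AGN193109 experiment, 11.81, 11.60 and 11.96 with AGN193109, and 11.51, 11.63 and 11.71 with AGN193109 and tRA. Within replicates AGN193109 was higher than vehicle by 0.32, 0.18 and 0.25, but the groups overlapped. The mean log2 difference of 0.25 (SE 0.11, 95% interval -0.0058 to 0.50) did not pass the test (limma adjusted p = 1.00 over all clusters, unadjusted p = 0.054), nor with the replicate block (adjusted p = 0.477). When tRA was added, the Sgce difference was -0.18 (SE 0.11), lower in 2 of 3 replicates.

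In the DEAB experiment the Sgce level was 11.87, 11.94 and 12.13 with vehicle, 11.85, 11.93 and 11.97 with DEAB, and 11.76, 11.92 and 12.05 with DEAB and tRA. The groups overlapped throughout. DEAB differed from vehicle by -0.06 (SE 0.09, 95% interval -0.26 to 0.14), with -0.02, -0.01 and -0.16 in the 3 replicates, and tRA with DEAB differed from DEAB by -0.01 (SE 0.09, 95% interval -0.21 to 0.19). The Sgce cluster was thus higher in 3 of 3 replicates with AGN193109 and lower in 3 of 3 with DEAB. The test of that difference, 0.31 with a 95% interval from -0.0045 to 0.63, was not passed (limma adjusted p = 1.00). By that test limma called 0% of clusters, or 0.00427% with the replicate block, and 2.3% (539 clusters) had an unadjusted p under 0.05. For Sgce the unadjusted p was 0.053, or 0.0053 with the block (adjusted p = 0.680), a level under 0.05 that 5.57% of clusters reached with the block.

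The Ppp1r9a level was 8.84, 8.66 and 8.27 with vehicle, 8.91, 8.66 and 8.57 with AGN193109, and 8.58, 8.67 and 8.62 with AGN193109 and tRA. In the DEAB experiment it was 9.25, 9.11 and 9.06 with vehicle, 9.10 in all 3 DEAB replicates, and 9.07, 9.12 and 9.07 with DEAB and tRA. All groups overlapped, and the spread among vehicle replicates exceeded any difference of group means. The log2 difference from vehicle was 0.12 (SE 0.14, 95% interval -0.19 to 0.44) with AGN193109 and -0.04 (SE 0.05, 95% interval -0.16 to 0.08) with DEAB. The latter interval ends at 0.08, whereas Peg10 differed by 0.44 (SE 0.24) in the same comparison.

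Of the 8 member clusters other than Peg10, 0 were called by limma at an adjusted p under 0.05 in any of the 6 comparisons. The share called among all clusters was 0.0683% for AGN193109 against vehicle, 0.0214% for tRA added to AGN193109, 0.0342% for DEAB against vehicle and 0.325% for tRA added to DEAB. It was 0% for either inhibitor with tRA against vehicle, where 418 clusters (AGN193109) and 1403 clusters (DEAB) had an unadjusted p under 0.05. With the replicate block 0 of the 8 were called as well, beside 0.457%, 0.0812%, 0.303% and 1.5% of all clusters in the 4 comparisons just named in order, and 0.00427% and 0.0214% for AGN193109 with tRA and DEAB with tRA against vehicle. Without the block only 1 of the 8 reached an unadjusted p under 0.05 in any comparison, Peg3 when tRA was added to AGN193109, where 2.14% of all clusters did so. The share of all clusters at that level was 3.3% for AGN193109, 4.05% for DEAB and 6.39% for tRA added to DEAB, and 1.79% and 5.99% for AGN193109 with tRA and DEAB with tRA against vehicle. With the block 2 of the 8 reached that level for AGN193109 (Sgce and Mest, beside 6.99% of all clusters), 2 for tRA added to it (Peg3 and Mest, beside 5.2%), 1 for DEAB (Plagl1, beside 7.99%) and 1 for tRA added to DEAB (Peg3, beside 11.8%). None did so for AGN193109 with tRA or DEAB with tRA against vehicle, beside 5.04% and 11.1%. The median difference over the 8 clusters was 0.03 for AGN193109 and -0.0076 for DEAB, beside 0.02 and -0.00013 over all clusters.

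**Figure D2:**
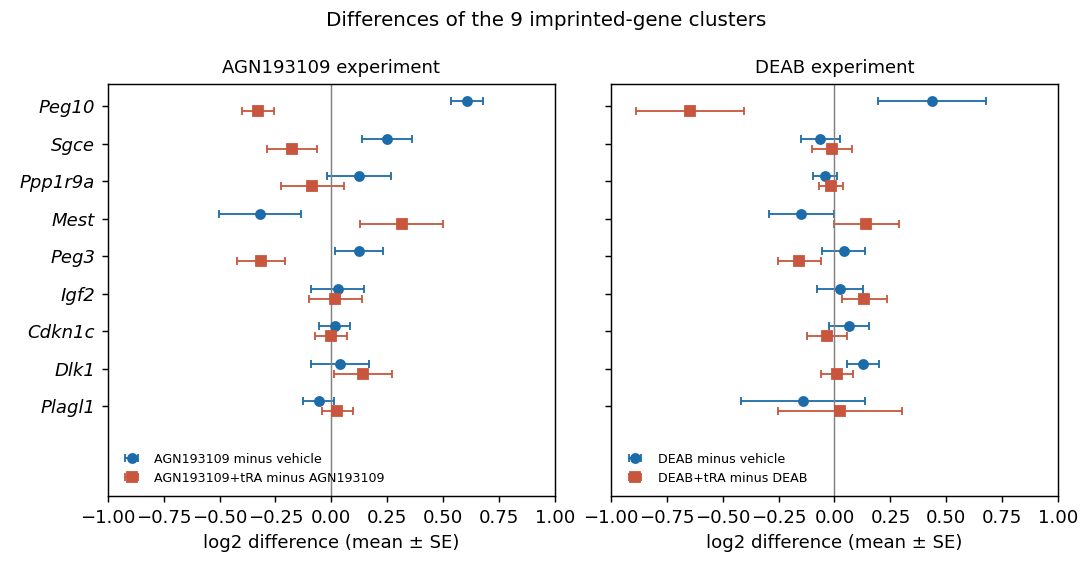
Log2 difference (x axis, mean ± SE, n = 3 per group) of the 9 imprinted-gene clusters (y axis) for inhibitor minus vehicle (circles) and inhibitor with tRA minus inhibitor (squares) in each experiment. Peg10 lies farthest from 0 in each of the 4 series, with Mest (0.31) and Peg3 (-0.31) close to its -0.33 in size for tRA added to AGN193109.

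Peg3, a paternally expressed gene of chromosome 7 that encodes a zinc finger protein, had the lowest unadjusted p of the tested members, for tRA added to AGN193109. Its level was 10.80, 10.74 and 10.50 with vehicle, 10.84, 10.79 and 10.77 with AGN193109, and 10.41, 10.69 and 10.36 with AGN193109 and tRA. The AGN193109 groups with and without tRA did not overlap, which held for 4.15% of all clusters. The difference was -0.31 (SE 0.11, 95% interval -0.55 to -0.07), from -0.43, -0.10 and -0.40 in the replicates. Its unadjusted p was 0.016, but it was not called after adjustment (limma adjusted p = 1.00, and 0.640 with the block). AGN193109 itself was above vehicle by 0.12 (SE 0.11), and the groups overlapped.

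In the DEAB experiment the Peg3 level was 11.15, 11.34 and 11.20 with vehicle, 11.18, 11.39 and 11.25 with DEAB, and 10.91, 11.22 and 11.22 with DEAB and tRA. The groups overlapped. DEAB differed from vehicle by only 0.04 (SE 0.10), and tRA with DEAB from DEAB by -0.16 (SE 0.10), lower in 3 of 3 replicates (limma adjusted p = 0.867).

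Mest, a paternally expressed gene that encodes a hydrolase-like protein and lies elsewhere on chromosome 6, differed from vehicle in the opposite direction to Peg10 on average, but no difference was called. Its level was 9.30, 9.52 and 9.58 with vehicle, 8.83, 9.04 and 9.58 with AGN193109, and 9.45, 9.26 and 9.69 with AGN193109 and tRA. The groups overlapped, as replicate 3 was the same with and without the antagonist. AGN193109 differed from vehicle by -0.32 (SE 0.18), from -0.47, -0.49 and -0.0010 in the replicates, and tRA added to it by 0.31 (SE 0.18), higher in 3 of 3 replicates; both had a limma adjusted p of 1.00. With the replicate block the adjusted p was 0.625 and 0.888.

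In the DEAB experiment the Mest level was 10.15, 9.83 and 9.60 with vehicle, 9.82, 9.70 and 9.63 with DEAB, and 10.06, 9.87 and 9.64 with DEAB and tRA. These groups overlapped too. The differences had the same signs as with AGN193109, -0.15 (SE 0.14) for DEAB and 0.14 (SE 0.14) for tRA added to it, and neither was called.

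**Figure D3:**
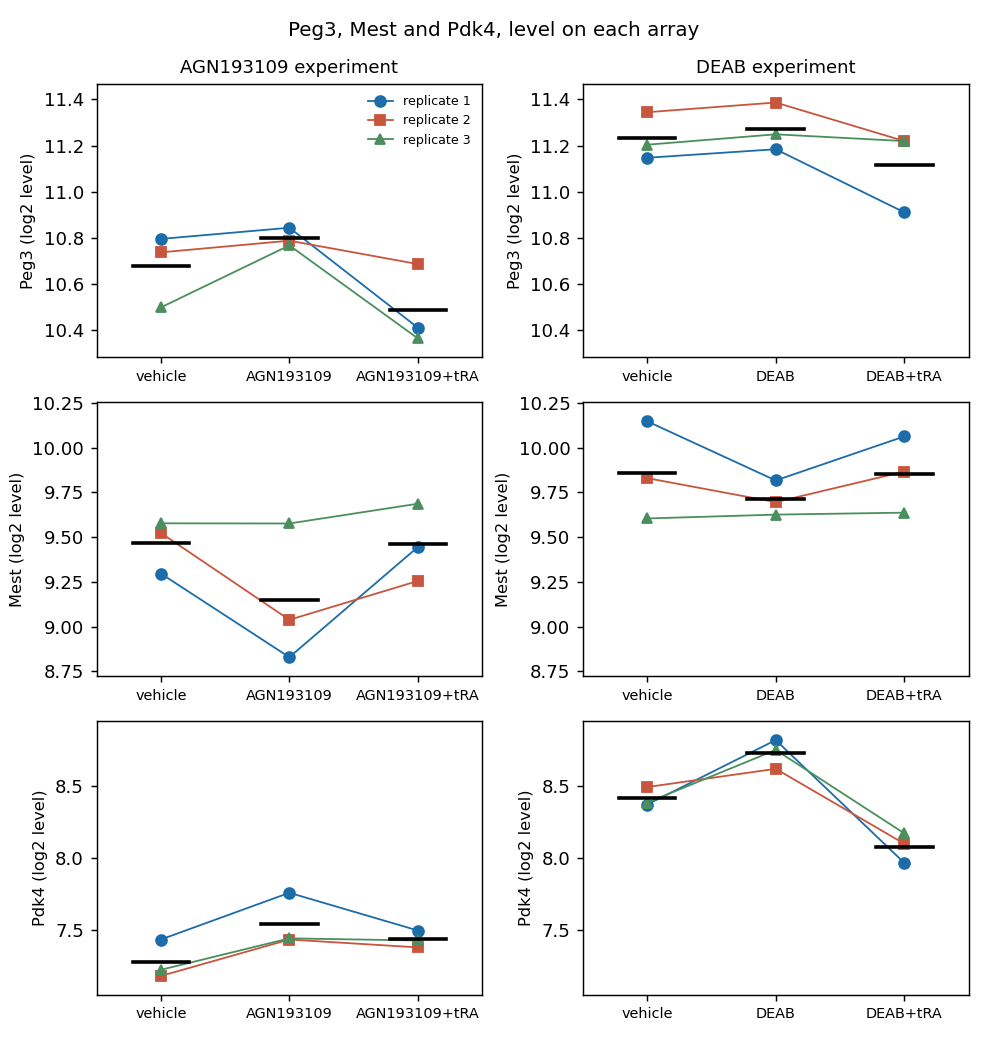
Log2 level (y axis) of Peg3, Mest and Pdk4 on each array, by treatment (x axis) in both experiments; points and lines follow replicates 1, 2 and 3 and black bars are the means of 3. Pdk4 peaks at DEAB in all 3 replicates and is lowest with DEAB and tRA, Mest is lower at AGN193109 than at vehicle in replicates 1 and 2, and Peg3 is lower at AGN193109 with tRA than at AGN193109.

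Igf2 and Cdkn1c were not called in any of the 6 comparisons. Igf2 encodes a fetal growth factor and Cdkn1c the cyclin-dependent kinase inhibitor p57, and they are expressed from opposite parental copies. The Igf2 level ranged from 6.75 to 7.28 in the AGN193109 experiment vehicle group and from 6.96 to 7.10 with AGN193109. The Cdkn1c level ranged from 7.59 to 7.64 and from 7.55 to 7.69 in the same groups. Igf2 differed from vehicle by 0.03 (SE 0.12, 95% interval -0.24 to 0.30) with AGN193109 and 0.03 (SE 0.10) with DEAB. It differed by 0.13 (SE 0.10) when tRA was added to DEAB and by 0.16 (SE 0.10) between DEAB with tRA and vehicle. Cdkn1c differed from vehicle by 0.01 (SE 0.07) with AGN193109 and 0.06 (SE 0.09) with DEAB. H19, the noncoding RNA that shares its control region with Igf2, was not analysed here.

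Dlk1, which encodes a Notch-related membrane protein, differed from vehicle by 0.04 (SE 0.13) with AGN193109 and by 0.13 (SE 0.07) with DEAB, which was higher in 2 of 3 replicates. Plagl1 encodes a zinc finger transcription factor. Its levels in the DEAB experiment differed more between replicates than between treatments, at 7.56, 7.97 and 8.32 with vehicle, 7.31, 7.97 and 8.13 with DEAB, and 7.38, 7.95 and 8.16 with DEAB and tRA. Replicate 1 was thus lowest for Plagl1 where it was highest for Peg10. The mean Plagl1 difference of DEAB from vehicle was -0.14 (SE 0.28), from -0.25, 0.0046 and -0.19 within replicates, with an SE of 0.05 under the replicate block (limma unadjusted p = 0.032, adjusted p = 0.564). That of AGN193109 was -0.06 (SE 0.07), and neither was called.

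Beyond Sgce and Ppp1r9a, 16 further genes around Peg10 on chromosome 6 were listed, from Calcr to Dlx5. Of their 16 clusters, 0 were called for AGN193109 or DEAB against vehicle, beside 0.0683% and 0.0342% of all clusters. In each, 1 of the 16 had an unadjusted p under 0.05, the same gene, Pdk4, beside 3.3% and 4.05% of all clusters. When tRA was added to DEAB, 0 were called higher and 1 lower, which was again Pdk4, beside 0.325% of all clusters called. For tRA added to AGN193109, 0 were called, beside 0.0214%. The median difference of the 16 was 0.06 with AGN193109 and 0.03 with DEAB, beside the 0.02 and -0.00013 of all clusters given above. Asb4, an imprinted gene between Ppp1r9a and Pdk4, differed from vehicle by 0.19 (SE 0.09) with AGN193109 and by -0.01 (SE 0.07) with DEAB and was not called.

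Pdk4 encodes a kinase that switches off the pyruvate dehydrogenase complex, and lies from 5483351 to 5496278, so that it begins 722.833 kb after the end of Peg10. It entered for its position and not as an imprinted gene, although the study had also listed it from these arrays, so that its direction is no independent evidence. Its level was 8.37, 8.49 and 8.38 with vehicle, 8.81, 8.62 and 8.75 with DEAB, and 7.97, 8.10 and 8.17 with DEAB and tRA. These 3 groups did not overlap. The share of all clusters without overlap was 6.89% for DEAB and vehicle and 9.21% for DEAB with and without tRA. It was 8.07% for DEAB with tRA and vehicle. With tRA the Pdk4 level fell by 0.65 on the log2 scale (SE 0.07, 95% interval -0.81 to -0.48; limma adjusted p = 0.0092), in 3 of 3 replicates. The adjusted p rose to 0.056 without DEAB+tRA replicate 2, 0.060 without DEAB replicate 3 and 0.072 with only the 6 arrays compared.

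DEAB alone exceeded vehicle for Pdk4 by 0.31 (SE 0.07), which was not called (limma adjusted p = 0.586). In the AGN193109 experiment the level was 7.44, 7.18 and 7.23 with vehicle, 7.76, 7.44 and 7.44 with AGN193109, and 7.50, 7.38 and 7.43 with AGN193109 and tRA. The difference from vehicle was 0.26 (SE 0.11), higher in 3 of 3 replicates, with a limma adjusted p of 1.00. Vehicle and AGN193109 touched at the value of vehicle replicate 1.

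**Figure D4:**
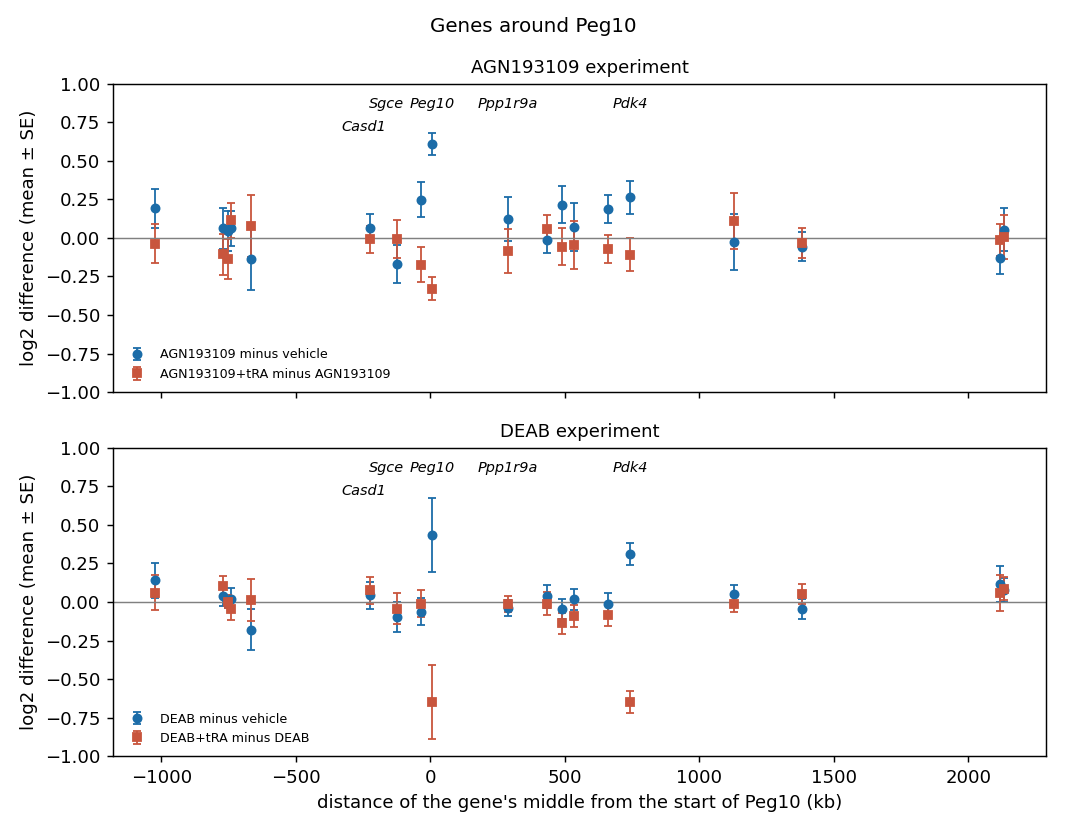
Log2 difference (y axis, mean ± SE, n = 3 per group) of each gene against the distance of its middle from the start of Peg10 (x axis, kb), for inhibitor minus vehicle (circles) and inhibitor with tRA minus inhibitor (squares). In the DEAB experiment Peg10 and Pdk4 stand at -0.65 for added tRA while Sgce and Ppp1r9a lie near 0. The genes between Ppp1r9a and Pdk4 stand at -0.01 (Pon1), -0.14 (Pon3), -0.09 (Pon2) and -0.08 (Asb4).

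Promoter sequences in the RefSeq table (GRCm38.p6, 250 bases before to 50 after a start) were present for 6 of the 10 members, namely Ppp1r9a, Igf2, Peg3, Mest, Dlk1 and Plagl1, and for Pdk4. They were searched on both strands for 4 hexamers of the kind that pairs up in retinoic acid response elements, namely AGGTCA, its variant GGGTCA, the further variant AGTTCA, and lastly GGTTCA. The windows of 3 genes are shown, with the hexamers in capitals and the rest in lower case. They are that of the called neighbour Pdk4, the upstream start of the neighbour Ppp1r9a and a Mest window with 2 such hexamers. An overlapping Mest window held as many. Pdk4 is at chr6:5496229-5496528 on the minus strand, Ppp1r9a at chr6:4902725-4903024 and Mest at chr6:30737800-30738099 on the plus strand.

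Pdk4: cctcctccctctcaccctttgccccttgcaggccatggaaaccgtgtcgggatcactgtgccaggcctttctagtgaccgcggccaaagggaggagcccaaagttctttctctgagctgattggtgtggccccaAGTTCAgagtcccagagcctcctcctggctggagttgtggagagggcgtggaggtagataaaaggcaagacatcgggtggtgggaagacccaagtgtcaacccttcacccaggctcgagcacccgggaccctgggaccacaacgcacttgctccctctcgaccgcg
Ppp1r9a: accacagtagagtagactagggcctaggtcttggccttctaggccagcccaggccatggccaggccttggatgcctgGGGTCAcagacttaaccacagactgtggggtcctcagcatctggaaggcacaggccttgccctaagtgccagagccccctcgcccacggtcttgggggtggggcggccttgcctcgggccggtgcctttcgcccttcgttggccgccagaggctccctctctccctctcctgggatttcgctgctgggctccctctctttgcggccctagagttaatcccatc
Mest: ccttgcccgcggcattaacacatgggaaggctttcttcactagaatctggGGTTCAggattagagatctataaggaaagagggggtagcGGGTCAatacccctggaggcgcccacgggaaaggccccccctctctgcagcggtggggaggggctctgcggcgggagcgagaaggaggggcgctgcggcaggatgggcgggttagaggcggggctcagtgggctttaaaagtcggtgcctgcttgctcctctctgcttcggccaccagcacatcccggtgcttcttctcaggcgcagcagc

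The Pdk4 window held 1 hexamer (AGTTCA), the Ppp1r9a window 1 (GGGTCA) and the Mest window 2 (GGTTCA and GGGTCA). The windows of Peg3, Dlk1 and Plagl1 held 0. The window of the most upstream Igf2 start held 3, and the other Igf2 windows held 0. Of all 32851 windows, 43.7% held at least 1 of the 4 hexamers, 13.1% at least 2 and 2.93% at least 3, so that a single match is common. The other Ppp1r9a start, at chr6:4903061-4903360, held 0 hexamers but 48 CpG dinucleotides, a count reached by 1.22% of windows. The median window held 7. Imprints are carried as methylation at such dinucleotides, but methylation was not measured here, so the count does not show an imprint.

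The courses across arrays were then compared with that of Peg10, by Pearson correlation over the 18 arrays after the mean of each experiment was removed. The arrays share treatments and replicates, so that these values are a description and carry no p. Sgce had r = 0.07, rank 8826 of 23409 clusters, and Ppp1r9a r = 0.31, rank 2349. Peg3, Dlk1 and Igf2 lay between 0.01 and 0.10, Cdkn1c and Mest at -0.16 and -0.17 (Mest at -0.61 over the AGN193109 arrays, 0.21 over the DEAB arrays and 0.30 with group means removed), and Plagl1 at -0.57, below which lay 2.26% of clusters. Pdk4 had r = 0.69, rank 115.

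The neighbour Sgce followed Peg10 in one experiment only by this measure. Its r was 0.57 over the 9 arrays of the AGN193109 experiment and -0.42 over the 9 of the DEAB experiment. With replicate means also removed it was 0.56, and with group means removed, which leaves the spread among replicates, it was -0.41. This was not particular to the neighbour. Peg3, on chromosome 7, had 0.40 over the AGN193109 arrays and -0.15 over the DEAB arrays. Its r was 0.52 with replicate means also removed and -0.44 with group means removed. Mest had -0.65 with replicate means also removed, and Plagl1 -0.81 with group means removed. For Pdk4 the values were 0.78 and 0.66 in the AGN193109 and DEAB experiments, and 0.91 with replicate means also removed.

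The 5 clusters most like Peg10 were Axl (r = 0.89), a receptor tyrosine kinase, Asap1 (0.88), which acts on Arf GTPases, Abtb2 (0.87), Pkp1 (0.86), a desmosome protein, and B4galnt3 (0.85), a glycosyltransferase. The 5 most opposed were Lcn2 (-0.93), a secreted iron-siderophore carrier, Gstm2 (-0.90), a glutathione transferase, 1110008P14Rik (-0.89), Tspan9 (-0.89), a tetraspanin, and Scube3 (-0.88). With group means removed, which leaves the spread among replicates of one treatment, Lcn2 still had r = -0.91 and Axl 0.82. Several of these genes, Lcn2 and Pkp1 among them, had like Peg10 been listed by the study from these arrays, so that their likeness to it is no independent evidence.

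**Figure D5:**
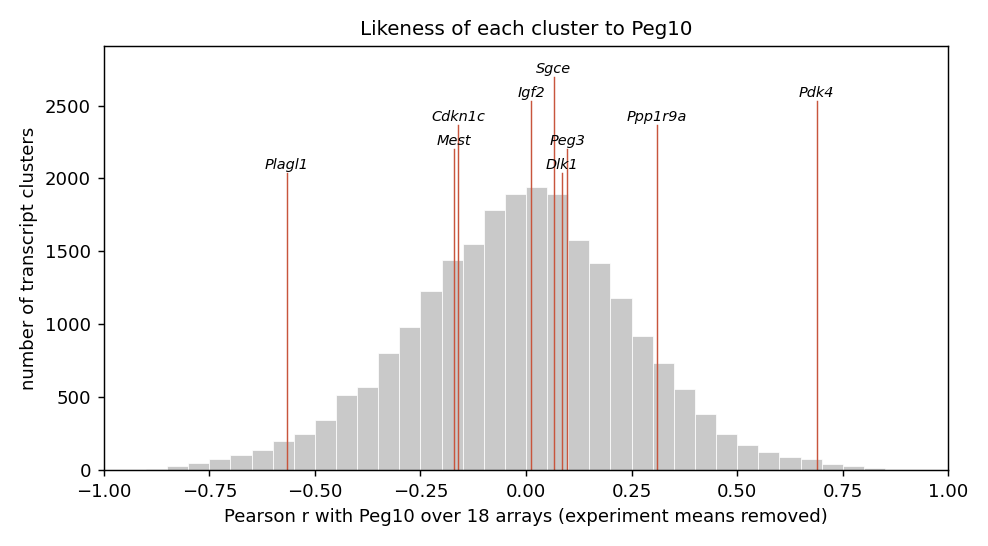
Number of transcript clusters (y axis) by Pearson r with Peg10 over 18 arrays with experiment means removed (x axis, bins of 0.05); lines mark the other member clusters and Pdk4. Sgce (0.07) lies in the middle of the distribution, Ppp1r9a (0.31) to its right, Plagl1 (-0.57) in the left tail and Pdk4 (0.69) in the right tail.

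Other imprinted genes were examined as a group. Of 58 listed genes, 50 had a cluster, 4 of them (Calcr, Asb4, Pon2 and Pon3) already among the 16 neighbours, and 0 were called with either inhibitor or when tRA was added to either. Among all clusters 0.0683% were called with AGN193109, 0.0342% with DEAB, and 0.0214% and 0.325% when tRA was added to them. The median difference of the 50 clusters was 0.05 with AGN193109 and -0.0023 with DEAB. Ndn, a paternally expressed gene of the Prader-Willi region, differed from vehicle by 0.32 (SE 0.14) with AGN193109 and -0.10 (SE 0.12) with DEAB. Its neighbour Magel2 differed by 0.02 (SE 0.12) and 0.20 (SE 0.07). None of these was called.

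Tnfrsf23, a decoy receptor for TRAIL in the distal chromosome 7 imprinted region, is named because the replicate block changed its call, and it too had been listed by the study from these arrays. Its level was 10.03, 10.95 and 10.79 with vehicle and 10.61, 11.38 and 11.30 with AGN193109. Replicate 1 was lowest in each group, so the groups overlapped, but AGN193109 was higher by 0.58, 0.43 and 0.51 within replicates. The mean difference of 0.51 (SE 0.29) had a limma adjusted p of 1.00 without the block and 0.020 with it. DEAB differed from vehicle by 0.06 (SE 0.19).

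Genes that keep imprints, such as the methyltransferase Dnmt1, were listed as well, with the Dnmt3 and Tet genes, which act in adding and removing DNA methylation. Of 19 clusters of these 14 genes, 0 were called in any of the 4 comparisons, beside 0.0214% to 0.325% of all clusters. Zfp57, a zinc finger protein that protects imprints after fertilisation, differed by 0.22 (SE 0.13) with AGN193109 and by -0.00087 (SE 0.05) with DEAB. The clusters of Dppa3, which guards the maternal genome against demethylation, differed by 0.06 and 0.16 with AGN193109 and by -0.07 and 0.02 with DEAB. The first of them differed by 0.24 (SE 0.07) when tRA was added to DEAB (unadjusted p = 0.011, limma adjusted p = 0.529). Genes derived, like Peg10, from retrotransposon gag sequences had clusters for 8 of 11 genes, and 0 were called, beside the same shares of all clusters. Ldoc1 and Rtl1 of that group differed by 0.01 (SE 0.06) and 0.05 (SE 0.09) with AGN193109 and by 0.16 (SE 0.07) and 0.10 (SE 0.05) with DEAB.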

How the data were processed

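Labelled cDNA of 18 mIMCD-3 RNA samples had been hybridised to Affymetrix Mouse Gene arrays. The authors ran the Robust Multichip Average (RMA) and deposited log2 values per transcript cluster. The submitters' processing notes name Affymetrix Expression Console for this step, and the study's methods name an Affymetrix Gene Control Console. The software version was not given in the sources used. RMA compresses differences of dim clusters. Array medians lay between 7.23 and 7.33 in the AGN193109 experiment and between 7.48 and 7.51 in the DEAB experiment. Groups came from the titles, and the way a vehicle array's short name was written tied it to an experiment. Symbols came from the platform annotation: 21789 clusters had 1, 1621 several and 12146 none. Positions and promoters came from RefSeq. The number of arrays limits the precision. Some labels spell AGN193109 as AGN193110 or AGN193099.

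Each experiment's 9 arrays were fitted with limma 3.58.1 in R 4.3.3 (group means, empirical Bayes), with Benjamini-Hochberg adjustment over the 23410 clusters with a symbol and a call at an adjusted p under 0.05. The difference between experiments was tested as a contrast over all 18 arrays. No test was made for Peg10. The members, lists and rules were chosen with earlier results of these data known. Text names all member clusters, called genes of each list, otherwise its 2 lowest p-values, and the 5 highest and 5 lowest correlations with Peg10. Replicate numbers marked independent experiments, and deviations from group means correlated between same-numbered arrays in all 9 pairs (0.20 to 0.65, and 0.18 to 0.61 in the DEAB experiment). Between arrays of different number the values ran from -0.57 to 0.21, and from -0.51 to 0.31 in the DEAB experiment, so the ranges overlapped slightly. A fit with the replicate block was therefore also made, as an alternative. On simulated data of the same 23410 clusters, the fit found 57.2% of 1.5-fold and 86.8% of 2-fold changes for AGN193109 against vehicle, and 81.2% and 97.2% for DEAB. Of 1.3-fold changes it found only 16.8% for AGN193109 and 55.6% for DEAB, or 6.4% and 39.2% with the replicate block. The simulated noise was independent between arrays and held no replicate effect, and 50 clusters were changed at each fold. These shares may therefore differ from those on the real arrays. Alternatives were requantile normalization, median centring, a filter on dim clusters (all 9 member clusters passed), all 35556 clusters, the 6 arrays of a comparison, all 18 arrays, a robust trended fit and leaving out each array. In the correlations 1 cluster with a constant level was left out. Python 3 drew the figures.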

Additional observations from a re-analysis of the deposited data

Results flagged for a closer look

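By sign, Sgce differed from vehicle in opposite directions with the 2 inhibitors in all replicates. It was 0.25 above vehicle on the log2 scale with AGN193109 and -0.06 from it with DEAB, a difference of 0.31 that was not called by limma (adjusted p = 1.00; 0.680 with the replicate block). With DEAB the differences within replicates were -0.02, -0.01 and -0.16, so 2 of 3 were small. The 95% interval of the DEAB mean, -0.26 to 0.14, included 0. Among all clusters 2.35% moved in opposite directions in all replicates of the experiments, and 5.44% in the same direction.

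Peg10 under inhibitor plus tRA lay 0.28 above vehicle in the AGN193109 experiment and -0.21 from it in the DEAB experiment, in all replicates of each. Without the vehicle replicate 1 array of the DEAB experiment, but with its DEAB and tRA replicate 1 kept, the latter was -0.011. The difference between the full values is 0.49 and was not tested, since Peg10 was chosen on these contrasts. The tRA dose was 0.2 µM in the first and 0.01 µM in the second, so that dose and inhibitor cannot be told apart. Such opposite movement was seen for 2.37% of clusters.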

How the results depend on the processing

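Peg10 kept its sign in all 102 values under the alternatives tried, but many of these could not change it. The block, the dim filter, the choice of clusters or arrays fitted and the robust trended fit leave a difference of group means unchanged. The same holds when an array outside the comparison is left out. Only the 2 renormalizations and the loss of an array within the comparison could move it. A fit without 1 array kept the other arrays of that replicate, and in the DEAB experiment Peg10 stood highest in replicate 1. Leaving out 1 array moved its difference most in the DEAB experiment: DEAB against vehicle ranged from 0.18 (without DEAB replicate 1) to 0.64 (without vehicle replicate 1), tRA added to DEAB from -0.83 to -0.39 (without DEAB replicate 1), and DEAB with tRA against vehicle from -0.33 to -0.011 (without vehicle replicate 1). For AGN193109 with tRA against vehicle it ranged from 0.24 to 0.30. The replicate block left these differences as they were by construction, and with it 0 of the other 8 member clusters were called. Over all 126 alternative counts, those by leaving out an array included, 0 of the 8 were called; the lowest adjusted p was 0.336, and 67 of 1008 differences changed sign, 0 of them with an unadjusted p under 0.05.

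The likeness of Sgce to Peg10 (r = 0.07) depended on the arrays and the centring: it was 0.57 over the AGN193109 arrays, -0.42 over the DEAB arrays, 0.56 with replicate means also removed, -0.41 with group means removed and -0.018 as Spearman's rho. That of Ppp1r9a was 0.46 over the AGN193109 arrays, and that of Peg3 was 0.40 over the same arrays. The causes were not tested. Pdk4 was called in 14 of 17 alternatives for tRA added to DEAB, with differences from -0.70 to -0.59. Counts over all clusters moved by more than 1.5 times. With the replicate block they rose from 16 to 107 for AGN193109 against vehicle, 5 to 19 for tRA added to it, 8 to 71 for DEAB and 76 to 351 for tRA added to DEAB. With only the 6 arrays compared they were 2, 0, 5 and 25. With 3 replicates, small differences of single genes could pass unnoticed.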
